A study of Homo sapiens with 36 samples.

Results

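The serine/arginine-rich (SR) proteins and the heterogeneous nuclear ribonucleoproteins (hnRNPs) are the main families of RNA-binding proteins that choose splice sites in human cells. The genes described here were taken by symbol: every SRSF gene, every HNRNP gene that is not a pseudogene, TRA2A and TRA2B, and PTBP1, PTBP2 and PTBP3, each with a summed count of at least 1000 over all libraries. The rule gave 37 members of the 57665 genes in the tables, namely 11 SRSF, 2 TRA2, 21 HNRNP and 3 PTBP genes. Another 5 genes with fitting names stayed below that sum (HNRNPCL1 to HNRNPCL4 and SRSF12), and 124 hnRNP pseudogenes were left out by name. All 37 members passed the filter on low counts and were tested.

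RNA was sequenced from U2OS cells, a human osteosarcoma line, and all groups, controls included, held Dmr-PERK, in which the mouse PERK kinase domain is joined to DmrB. The ligand AP20187 (the dimerizer) brings DmrB domains together, which switches on the kinase and so the integrated stress response through phosphorylation of eIF2α. The groups were ATF4 knockout (KO) cells and wild-type (WT) cells, each untreated (0 h) or with dimerizer for 2, 4, 8, 16 or 24 h, in 3 wells per group and 36 libraries in all. ATF4 is the transcription factor whose translation rises in this response. The labels give 1 dose, without a unit. Per the labels' protocols the dimerizer went onto wells seeded the day before, at set times ahead of collection, and the untreated wells used here form 1 group per genotype. Since every well held Dmr-PERK, effects of the ligand and of the kinase cannot be told apart. The labels do not say how many KO clones were used, or whether a group's 3 wells came from separate cultures, so that p values measure the spread between wells.

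Library totals ran from 8608783 to 16265056 counts, with 26320 to 30889 genes detected, and the members took 1.185 to 1.384% of the counts. The mesenchymal markers VIM, COL1A1, SPARC, RUNX2, FN1 and CD44 were read in every library, COL1A2 lay between 0 and 1.12 CPM, and 7 markers of other cell types did not exceed 8.43 CPM. ATF4 mRNA, the product of the targeted gene, was present in the KO wells (259 to 274 CPM in KO and 310.1 to 323 CPM in WT at 0 h; 714 to 759.8 CPM in KO and 689.6 to 713 CPM in WT at 24 h), so that gene counts do not show the disrupted allele. The deposited count and TPM columns of untreated KO did not match by name: the TPM column of replicate 3 correlated with its count column at r = 0.505, and TPM column 2 was the best match of count columns 1 (r = 0.916, against 0.911 for its own) and 3 (r = 0.966), while count column 2 matched TPM column 1 best (r = 0.959, against 0.93). The other 33 libraries matched their own column, and all values below are from the counts unless given in TPM. In bulk RNA, fewer cells and less RNA per cell cannot be told apart. In pairs, the count columns of untreated KO had chi-square over degrees of freedom of 1.524 to 1.858, against 1.338 to 2.612 over all groups. Which of the untreated KO columns is misplaced was not tested further. Comparisons of KO with WT at 2 h and later do not use these wells.

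SR proteins carry RNA recognition motifs and a tail of arginine-serine repeats, bind exonic enhancers and recruit the spliceosome, whereas many hnRNPs bind silencers and block splice sites. The families often act against each other on the same exon. Most of these genes also control their own mRNA: when the protein is plentiful, an extra "poison" exon or intron is spliced so that the mRNA carries an early stop codon and is removed by nonsense-mediated decay. In GENCODE 29, 27 of the 37 members (73%) had at least 1 transcript of that class, against 41.9% of the 14420 protein-coding genes tested. A retained-intron transcript was annotated for 25 members (67.6%), against 55.3% of those genes. The counts here are sums over a gene's transcripts and do not separate these forms.

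Promoter sequences of the members were searched for short motifs. RefSeq start sites on GRCh38.p14 were found for 34 members, and the 250 bases before each start were read on both strands. Alternative start sites of a gene were not searched. The E-box CACGTG, which MYC and related factors bind, occurred in 6 members (17.6%), against 6.5% of 27305 promoters: HNRNPA3, HNRNPD, HNRNPDL, HNRNPH2, HNRNPH3 and HNRNPM. The C/EBP-ATF element TGATGNAA, the type of site that ATF4 dimers bind, occurred in 0 members and in 3.2% of all promoters, and the cyclic AMP element TGACGTCA in 0 members and in 1.8%. The CCAAT box (ATTGG on the other strand) occurred in 16 members (47.1%) and in 33% of all promoters, and the GC box GGGCGG in 23 members (67.6%) and in 42.3%. The 27305 promoters were not limited to genes tested here, whereas all members were tested. These are matches of letters, not measured binding sites.

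Printed here are the promoter stretches of 4 members to which the results return, cut to the bases that overlap no annotated exon. They lie at chr20:43457646-43457895 on the plus strand, chrX:101408013-101408221 on the plus strand, chr5:179634785-179635034 on the minus strand and chr1:23344337-23344534 on the minus strand (RefSeq, GRCh38.p14). Each reads 5′ to 3′ toward its gene, and capitals mark every match to a searched motif on either strand.
SRSF6: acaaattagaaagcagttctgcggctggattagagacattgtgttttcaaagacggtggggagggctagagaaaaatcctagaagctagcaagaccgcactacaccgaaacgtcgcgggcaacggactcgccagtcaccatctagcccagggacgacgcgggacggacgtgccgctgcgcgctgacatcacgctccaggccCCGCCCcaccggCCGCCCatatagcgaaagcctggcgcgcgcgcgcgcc
HNRNPH2: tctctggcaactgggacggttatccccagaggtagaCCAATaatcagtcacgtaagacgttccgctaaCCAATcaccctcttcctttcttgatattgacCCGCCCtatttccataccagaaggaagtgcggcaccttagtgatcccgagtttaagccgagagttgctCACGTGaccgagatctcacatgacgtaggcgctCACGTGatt
HNRNPH1: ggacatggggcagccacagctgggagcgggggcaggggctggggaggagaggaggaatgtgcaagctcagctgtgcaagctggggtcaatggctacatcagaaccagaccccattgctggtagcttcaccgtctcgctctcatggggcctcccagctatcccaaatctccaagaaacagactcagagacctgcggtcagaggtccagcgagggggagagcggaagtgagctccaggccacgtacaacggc
HNRNPR: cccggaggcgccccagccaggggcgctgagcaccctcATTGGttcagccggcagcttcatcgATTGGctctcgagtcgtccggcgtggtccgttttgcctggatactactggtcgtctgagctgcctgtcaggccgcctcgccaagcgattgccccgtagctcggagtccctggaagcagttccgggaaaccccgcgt
In SRSF6 the capitals are 2 GC boxes, read as CCGCCC. HNRNPH2 holds 2 E-boxes, 2 CCAAT boxes and 1 GC box. HNRNPH1, its close paralog, holds no match in 250 bases, and HNRNPR holds 2 CCAAT boxes, read as ATTGG.

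Per transcript length, the members differed widely in untreated WT cells. HNRNPA1, a repressor that binds UAG-containing silencers, had 1754 ± 9.9 TPM, and HNRNPA2B1, its close relative, 1119.8 ± 34.6 TPM (SD, n = 3). HNRNPH1 with 639 ± 13.6 TPM, HNRNPK with 621 ± 7.93 TPM and HNRNPD with 554 ± 4.4 TPM followed. The SR genes with the highest levels were SRSF3 with 529 ± 13.3 TPM and SRSF5 with 515 ± 27.5 TPM, whose spreads overlap, then SRSF7 with 274 ± 20.5 TPM. The lowest were HNRNPUL2 with 22.3 ± 1.7 TPM, SRSF8 with 18.4 ± 0.36 TPM and HNRNPA1L2 with 1.82 ± 0.09 TPM. HNRNPA1, HNRNPA1L2 and the A1 pseudogenes are near-identical copies, so the division of reads among them is uncertain.

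After the dimerizer most members changed, and none reached a 2-fold change against 0 h or between KO and WT at 1 time. Between other times the steps were wider for SRSF7, SRSF5 and SRSF1, whose spans over all groups are given below. Levels below are CPM (counts relative to the TMM-scaled library total), and changes are log2 fold changes ± SE, comparing 3 wells with 3. A difference of changes takes in the 0 h and treated wells of both genotypes. The SE is the absolute log2 change over the square root of F in edgeR's quasi-likelihood test. In that test the spread is estimated over all 36 libraries. A member is said to rise or fall where the test's Benjamini-Hochberg adjusted p over 19043 genes was under 0.05. In KO cells 35 members changed at 1 or more times, the exceptions being HNRNPA0 and HNRNPA1L2, and in WT cells 36 did, the exception being HNRNPA1L2. Of all tested genes 82.6% changed at 1 or more times in KO and 82.6% in WT, so that most genes did so too. The distance from a member's lowest to its highest group mean had a median of 0.52 on the log2 scale, against 0.761 for the 10522 tested genes averaging 10 CPM or more. SRSF7 spanned 1.34, SRSF5 1.13, SRSF1 1.02, SRSF6 0.92, HNRNPH2 0.86 and HNRNPH3 0.80, and SRSF4 spanned least with 0.24.

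In KO cells 6 members were higher and 7 lower at 2 h, against 9.85% and 8.5% of all tested genes. At 4 h 16 were higher and 9 lower (22.1% and 20.3% of all genes). By 8 h 25 were higher and 5 lower (30.7% and 31.1%). The 16 h wells gave 21 higher and 8 lower (33.0% and 32.7%), and the 24 h wells 23 higher and 5 lower (32.4% and 33.0%). The median change of the members was 0.01, 0.08, 0.24, 0.15 and 0.20 at these times, while the median over all tested genes lay between -0.04 and -0.01. At 8 h in KO the 25 of 37 higher members are a larger share than that of all genes, and the 5 lower a smaller one. The 7 lower members at 2 h became 3 when any 1 of KO 0 h replicate 1 or 3 or a KO 2 h replicate was left out.

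In WT cells 6 members were higher and 8 lower at 2 h, against 12.2% and 10.4% of all tested genes. At 4 h 20 were higher and 10 lower (23.6% and 21.1%). By 8 h 19 were higher and 8 lower (29.7% and 29.6%). The 16 h wells gave 14 higher and 17 lower (33.7% and 32.8%), and the 24 h wells 16 higher and 14 lower (33.0% and 32.4%). The median change was -0.02, 0.07, 0.09, -0.01 and 0.03. At 16 and 24 h in WT the members were about evenly split between the directions, as all tested genes were. The KO and WT courses share no wells, and their difference is tested further on.

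**Figure D1:**
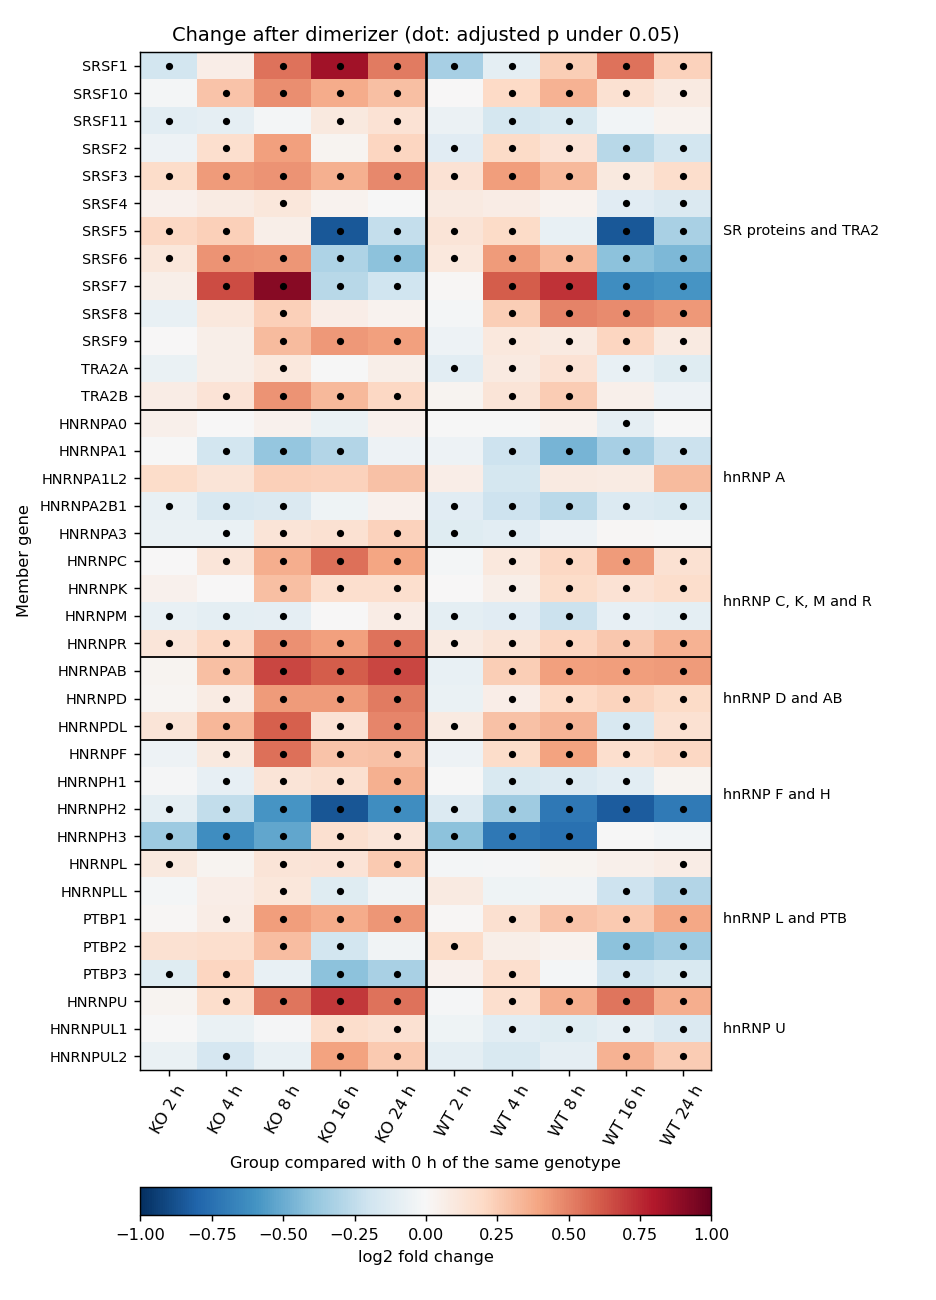
Change of each of the 37 members (rows, grouped by family) at each time with dimerizer, as the log2 fold change against 0 h of the same genotype (colour, red higher and blue lower); KO columns stand left of WT columns, and a dot marks an adjusted p under 0.05. SRSF7 turns from red at 4 and 8 h to blue at 16 and 24 h in both genotypes, HNRNPH2 is blue throughout, and HNRNPAB, HNRNPU and HNRNPR are red from 4 h on.

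SRSF7, an SR protein with a zinc knuckle that also helps export mRNA, had the widest course (gene at chr2:38743599-38751494, GRCh38). SRSF7 stood in KO wells at 189.7, 180.2 and 182 untreated, 203, 192 and 179.9 after 2 h, 292, 289 and 285 after 4 h, 337, 342 and 355 after 8 h, 153, 154 and 145 after 16 h, 155, 157 and 167 after 24 h, in CPM. WT wells gave 228, 201 and 207 untreated, 208, 215 and 219.7 after 2 h, 336, 319.5 and 315 after 4 h, 337, 357 and 356 after 8 h, 134, 146 and 134 after 16 h, 147, 142 and 133 after 24 h. In both genotypes all wells at 4 and 8 h lay above the 0 h wells, and all wells at 16 and 24 h lay below them. The change in KO was 0.65 ± 0.04 at 4 h, 0.91 ± 0.04 at 8 h (adjusted p = 1.78e-22), -0.28 ± 0.04 at 16 h and -0.20 ± 0.04 at 24 h. In WT it was 0.61 ± 0.04, 0.72 ± 0.04 (adjusted p = 2.68e-19), -0.62 ± 0.04 and -0.59 ± 0.04. At 2 h neither passed (0.06 ± 0.04 in KO and 0.01 ± 0.04 in WT). In the limma fits of all TPM columns the KO fall of SRSF7 at 24 h was -0.16 and did not pass, and the KO value at 2 h was 0.29 and passed. With TPM columns 1 and 2 of untreated KO the fall at 24 h passed and the 2 h value did not, as in the counts. Over the 12 group means, the tested genes most like SRSF7 were ZNF674-AS1 (Pearson r = 0.98), BICD1 (0.978), OSBP2 (0.974), EZR (0.974) and BIRC3 (0.972), a description of shared shape in the same libraries.

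SRSF6, an SR protein with a pair of RNA recognition motifs, followed the same order of a rise and then a fall (chr20:43457928-43464247). SRSF6 stood in KO wells at 298, 316 and 327 untreated, 342, 345 and 333 after 2 h, 419, 444 and 426 after 4 h, 412, 429.7 and 437 after 8 h, 259, 255 and 248 after 16 h, 227, 239.6 and 240.1 after 24 h, in CPM. The matching WT values were 331, 328 and 332 untreated, 356, 349.5 and 362 after 2 h, 441, 441 and 453 after 4 h, 399, 414 and 425 after 8 h, 249, 243 and 253 after 16 h, 240.3, 239.7 and 248 after 24 h. The wells of 4 and 8 h stood above those of 0 h, and the wells of 16 and 24 h below them, in both genotypes. The changes at 4, 8, 16 and 24 h were 0.45, 0.44, -0.31 and -0.41 in KO and 0.43, 0.32, -0.41 and -0.45 in WT, each ± 0.03. The KO fall of SRSF6 at 16 h was -0.14 and did not pass in the limma fits of all TPM columns. It passed with TPM columns 1 and 2 of untreated KO. SRSF5, a close relative of SRSF6, rose early and dipped at 16 h (chr14:69726900-69772005). SRSF5 stood in KO wells at 374, 388 and 403 untreated, 445, 455 and 445 after 2 h, 444, 469 and 468 after 4 h, 385, 413 and 418 after 8 h, 216, 226 and 209 after 16 h, 306, 336 and 343 after 24 h, in CPM. In WT wells it read 386, 372 and 373 untreated, 415, 407 and 418 after 2 h, 424, 442 and 424 after 4 h, 345, 362 and 368 after 8 h, 202, 212 and 215 after 16 h, 288, 308 and 309 after 24 h. At 16 h every well was below all 0 h wells, with -0.84 ± 0.04 in KO (adjusted p = 1.61e-22) and -0.85 ± 0.04 in WT (adjusted p = 4.75e-23), and at 24 h the values stood between those of 16 h and 0 h. At 8 h SRSF5 did not pass in either genotype (0.06 ± 0.04 in KO and -0.07 ± 0.04 in WT). SRSF5 was at 0.06 in KO at 8 h with all wells, and it passed without KO 0 h replicate 3 (0.10) or KO 8 h replicate 1 (0.10).

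SRSF1, the founding SR protein and a shuttling factor that promotes exon inclusion, had another course, lowest at 2 h and highest at 16 h (chr17:58003360-58007346). SRSF1 stood in KO wells at 291, 269.6 and 283 untreated, 244, 240.5 and 259.7 after 2 h, 290.3, 291 and 299.6 after 4 h, 417, 400.4 and 411 after 8 h, 504, 515 and 486 after 16 h, 413, 391 and 407 after 24 h, in CPM. WT wells gave 332, 319 and 315 untreated, 248, 259 and 260.1 after 2 h, 313, 296 and 292 after 4 h, 386, 386 and 376 after 8 h, 480.0, 460.0 and 468 after 16 h, 383, 369 and 384 after 24 h. All wells were below the 0 h range at 2 h and above it at 8, 16 and 24 h, with the highest values at 16 h. The changes at 2, 8, 16 and 24 h were -0.18, 0.54, 0.84 and 0.52 in KO and -0.33, 0.25, 0.54 and 0.23 in WT, each ± 0.03. SRSF1 shares 56.6% of its exon bases with AC015813.2 on the same strand, whose summed count was 0.2% of that of SRSF1.

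**Figure D2:**
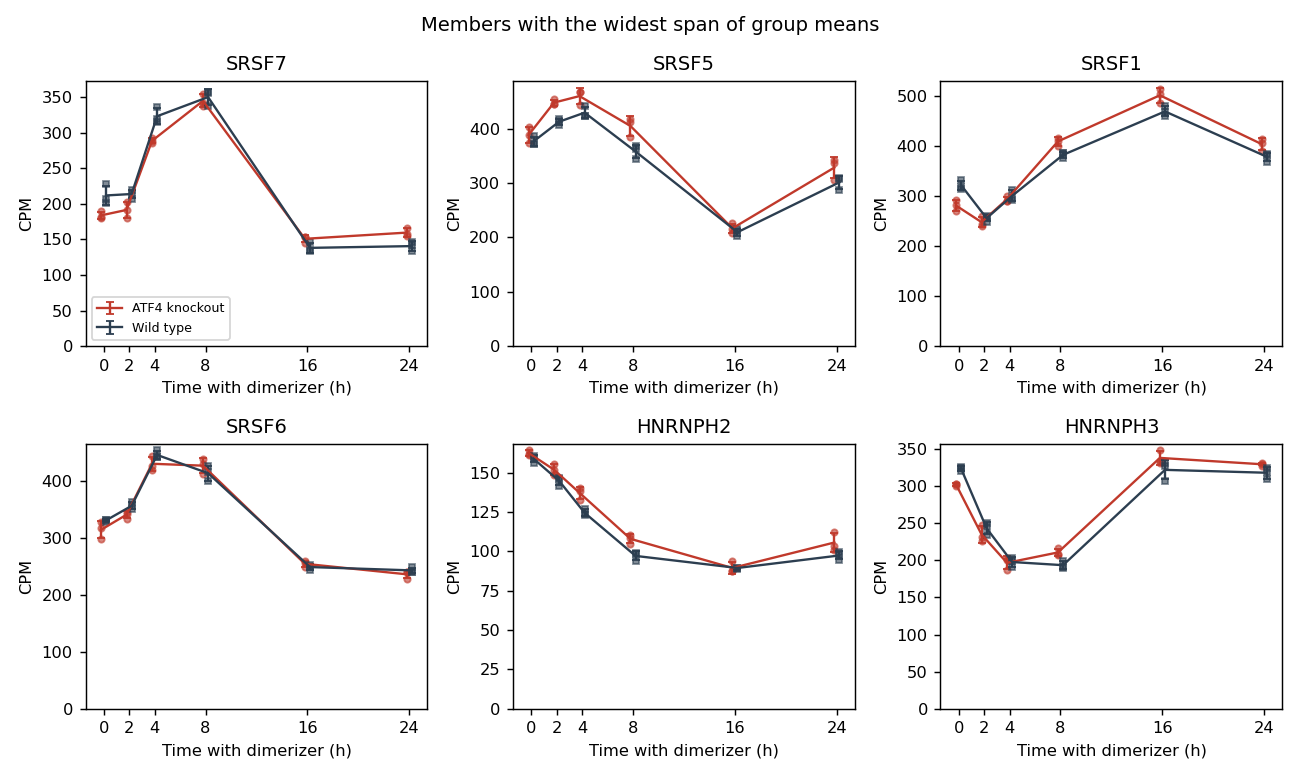
CPM of the 6 members with the widest span against hours with dimerizer; points are the 3 wells, lines join group means and bars are ± SD, KO (red circles) drawn just left of WT (dark squares). SRSF7 and SRSF6 peak at 4 to 8 h, SRSF5 is lowest and SRSF1 highest at 16 h, HNRNPH2 declines to 16 h, and HNRNPH3 is lowest at 4 to 8 h.

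Among all 13 SR and TRA2 genes, 11 were higher and 0 lower at 8 h in KO (30.7% and 31.1% of all tested genes). In WT 10 were higher and 1 lower (29.7% and 29.6%). The members without a call at 8 h in KO were SRSF5 and SRSF11, and the 1 lower in WT was SRSF11 (-0.15 ± 0.03). SRSF3, a small SR protein that links splicing to mRNA export, rose at all 5 times in both genotypes, by 0.48 ± 0.03 in KO and 0.18 ± 0.03 in WT at 24 h. SRSF10, which represses splicing when it loses its phosphates, rose by 0.46 ± 0.03 in KO and 0.35 ± 0.03 in WT at 8 h, and TRA2B, an SR-like activator, by 0.45 ± 0.03 and 0.26 ± 0.03. SRSF9 rose by 0.32 ± 0.03 in KO and 0.09 ± 0.03 in WT at 8 h, but 46.2% of its exon bases face exons of GATC on the other strand. By 24 h the 13 genes stood at 7 higher and 3 lower in KO (32.4% and 33.0% of all tested genes). In WT they stood at 5 higher and 6 lower (33.0% and 32.4%). SRSF4 and TRA2A, for example, were at -0.00 ± 0.04 and 0.06 ± 0.04 in KO, which did not pass, and fell by 0.14 ± 0.04 and 0.12 ± 0.04 in WT.

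The F and H group binds runs of guanines, and its 4 members went separate ways. HNRNPH2 fell through the course (chrX:101408295-101414133). HNRNPH2 stood in KO wells at 162, 164 and 161 untreated, 148, 152 and 155 after 2 h, 133, 138 and 140.4 after 4 h, 105, 110.4 and 109 after 8 h, 93.8, 87.2 and 87.3 after 16 h, 101, 104 and 112 after 24 h, in CPM. The matching WT values were 161, 156 and 159 untreated, 142, 147 and 146 after 2 h, 123, 127 and 124 after 4 h, 99.0, 93.8 and 98.6 after 8 h, 89.1, 89.6 and 89.8 after 16 h, 98.0, 94.6 and 99.7 after 24 h. From 4 h on every well was below its 0 h range, the lowest values were at 16 h, and the wells of 24 h lay above those of 16 h. The changes at 4, 8, 16 and 24 h were -0.25 ± 0.03, -0.59 ± 0.03, -0.85 ± 0.04 and -0.62 ± 0.03 in KO, and -0.35 ± 0.04, -0.71 ± 0.04, -0.83 ± 0.03 and -0.71 ± 0.04 in WT (adjusted p at 16 h 1.99e-23 in KO and 8.01e-24 in WT). HNRNPH2 shares 16.3% of its exon bases with the read-through gene RPL36A-HNRNPH2, whose summed count was 0.3% of its own.

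HNRNPH3, a shorter member of the group, fell early and came back (chr10:68331174-68343191). HNRNPH3 stood in KO wells at 303, 300.4 and 303 untreated, 248, 231 and 226 after 2 h, 203, 199.9 and 187 after 4 h, 216, 209 and 207 after 8 h, 333, 331 and 349 after 16 h, 327, 330.0 and 331 after 24 h, in CPM. In WT wells it read 326, 320.2 and 324 untreated, 245, 250.3 and 234 after 2 h, 204, 199 and 191 after 4 h, 199, 190.2 and 191 after 8 h, 307, 331 and 327 after 16 h, 325, 309 and 319.5 after 24 h. At 2, 4 and 8 h every well was below the 0 h range of its genotype. At 16 h the KO wells were above their 0 h range, while the WT wells spread across theirs. The changes at 2, 4 and 8 h were -0.37, -0.62 and -0.52 in KO and -0.41, -0.71 and -0.74 in WT, each ± 0.03. At 16 and 24 h HNRNPH3 rose by 0.16 ± 0.03 and 0.12 ± 0.03 in KO, and in WT it was at -0.01 ± 0.03 and -0.03 ± 0.03. The 2 rises in KO did not pass with limma on log2(TPM + 1), which uses the unmatched TPM columns (0.07 and 0.01), and passed with TPM columns 1 and 2 of untreated KO. HNRNPF rose by 0.55 ± 0.03 in KO and 0.40 ± 0.03 in WT at 8 h.

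The A group holds exon-silencing hnRNPs, and 3 of its 5 members fell at 4 h in each genotype. The share of all tested genes lower at that time was 20.3% in KO and 21.1% in WT. HNRNPA1 was at 1115, 1134 and 1138 CPM in KO at 8 h, against 1444, 1493 and 1487 CPM in KO at 0 h. In WT it was at 1072, 1090.0 and 1154 CPM at 8 h, against 1524, 1522 and 1538 CPM at 0 h. The 8 h wells lay below all 0 h wells, a fall of 0.39 ± 0.02 in KO (adjusted p = 8.82e-18) and of 0.47 ± 0.02 in WT (adjusted p = 2.2e-20) on the log2 scale. At 24 h HNRNPA1 was back at -0.05 ± 0.02 in KO, which did not pass, and at -0.22 ± 0.02 in WT, which did. HNRNPA2B1 moved less, by -0.14 ± 0.02 in KO and -0.27 ± 0.02 in WT at 8 h. HNRNPA3 was called higher in KO at 8 h (0.13 ± 0.03) and not in WT (-0.05 ± 0.03), and HNRNPA0 did not pass at 8 h in either (0.04 ± 0.04 and 0.03 ± 0.04).

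The D and AB group binds AU-rich elements, which set how fast mRNAs decay. All 3 of its members rose at 4, 8 and 24 h in both genotypes. The shares of all tested genes higher at these times were 22.1%, 30.7% and 32.4% in KO. In WT they were 23.6%, 29.7% and 33.0%. HNRNPAB stood in KO wells at 317, 296 and 301 untreated, 320.4, 302 and 309 after 2 h, 372, 369 and 385 after 4 h, 478, 483 and 489 after 8 h, 459, 472 and 455 after 16 h, 469, 483 and 498 after 24 h, in CPM. WT wells gave 367, 336 and 344 untreated, 322, 327 and 346 after 2 h, 421, 421 and 400.5 after 4 h, 459.6, 465 and 465 after 8 h, 461, 476 and 464 after 16 h, 469.8, 475 and 465 after 24 h. All HNRNPAB wells from 4 h on were above the 0 h wells of their genotype, and the change at 8 h was 0.67 ± 0.03 in KO (adjusted p = 6.33e-22) and 0.41 ± 0.03 in WT (adjusted p = 5.27e-15). HNRNPDL rose by 0.60 ± 0.03 in KO and 0.34 ± 0.03 in WT at 8 h. At 16 h HNRNPDL was at 0.14 ± 0.03 in KO and -0.16 ± 0.03 in WT, both past the test. By the test of the difference given further on, all 3 members had the higher change in KO at 8, 16 and 24 h. Of all tested genes 11.3%, 16.7% and 17.7% did. All 3 were lower in KO than in WT at 0 h, as were 11.9% of all tested genes, and those wells enter the difference. Against WT at the same time, 1 of the 3 was higher in KO at 8 h, 1 at 16 h and 2 at 24 h, and 0 were lower. Of all tested genes 20.1%, 21.5% and 22.4% were higher at these times, and 14.5%, 14.7% and 15.6% lower.

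HNRNPU, which ties RNA to the nuclear scaffold, was among the members that rose most at 16 h. It had 1341, 1402 and 1328 CPM in KO at 16 h, against 864, 799.7 and 826 CPM in KO at 0 h, and 1339.6, 1363 and 1327 CPM in WT at 16 h, against 948, 916 and 919 CPM in WT at 0 h. The wells of the 2 times did not overlap in either genotype, and the rise was 0.71 ± 0.02 in KO (adjusted p = 7.88e-27) and 0.53 ± 0.02 in WT (adjusted p = 7.87e-23). On the other strand, 15.6% of its exon bases face COX20. HNRNPUL2 rose by 0.26 ± 0.06 in each genotype at 24 h, but it shares 44.1% of its exon bases with the read-through gene HNRNPUL2-BSCL2, which had 75.4% of its summed count, so its share of the reads is uncertain.

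HNRNPC, which binds uridine tracts, and HNRNPK, which binds cytidine tracts, both rose, at 8 h by 0.36 ± 0.03 and 0.30 ± 0.02 in KO and by 0.21 ± 0.03 and 0.19 ± 0.02 in WT. HNRNPM fell at 8 h, by 0.09 ± 0.02 in KO and 0.22 ± 0.02 in WT. PTBP1, the pyrimidine-tract repressor of neuronal exons, rose by 0.44 ± 0.03 in KO and 0.39 ± 0.03 in WT at 24 h. Its paralog PTBP2, the form known from neurons, which PTBP1 is known to hold down by making its mRNA unstable, was at -0.04 ± 0.07 in KO at 24 h, which did not pass, and fell by 0.35 ± 0.07 in WT. PTBP3 fell by 0.32 ± 0.04 in KO and 0.16 ± 0.04 in WT at 24 h, and the KO fall did not pass in the limma fits of TPM (-0.15 with a pseudocount of 1). The ratio of counts to TPM, which follows the mean length of the transcripts read, moved by up to 0.294 on the log2 scale for PTBP3 over the groups without KO 0 h. For 32 of the 37 members it moved by under 0.2, and for HNRNPH3 by 0.299, the highest value.

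Before treatment the members were lower in KO than in WT. At 0 h 1 member was higher and 25 were lower in KO, against 11.6% and 11.9% of all tested genes, and the median was -0.14, against -0.004 for all genes. The one that was higher was SRSF8, a paralog of SRSF2 (0.23 ± 0.05, adjusted p = 0.000506). The limma fit of TPM with its 3 untreated KO columns called 9 lower, and with TPM columns 1 and 2 alone 18. The same direction stood at 2 and 4 h in wells that share neither the untreated KO nor the untreated WT libraries: 2 higher and 21 lower at 2 h (10.2% and 11.3% of all genes), and 3 higher and 22 lower at 4 h (12.8% and 14.3%). From 8 h on the lower members no longer outnumbered the higher so clearly, with 11 higher and 5 lower at 8 h (20.1% and 14.5% of all genes). There were 7 higher and 8 lower after 16 h (21.5% and 14.7%), and 15 higher and 4 lower after 24 h (22.4% and 15.6%), a lean to higher values in KO. The comparisons at 2 h and later were chosen after the data were seen.

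**Figure D3:**
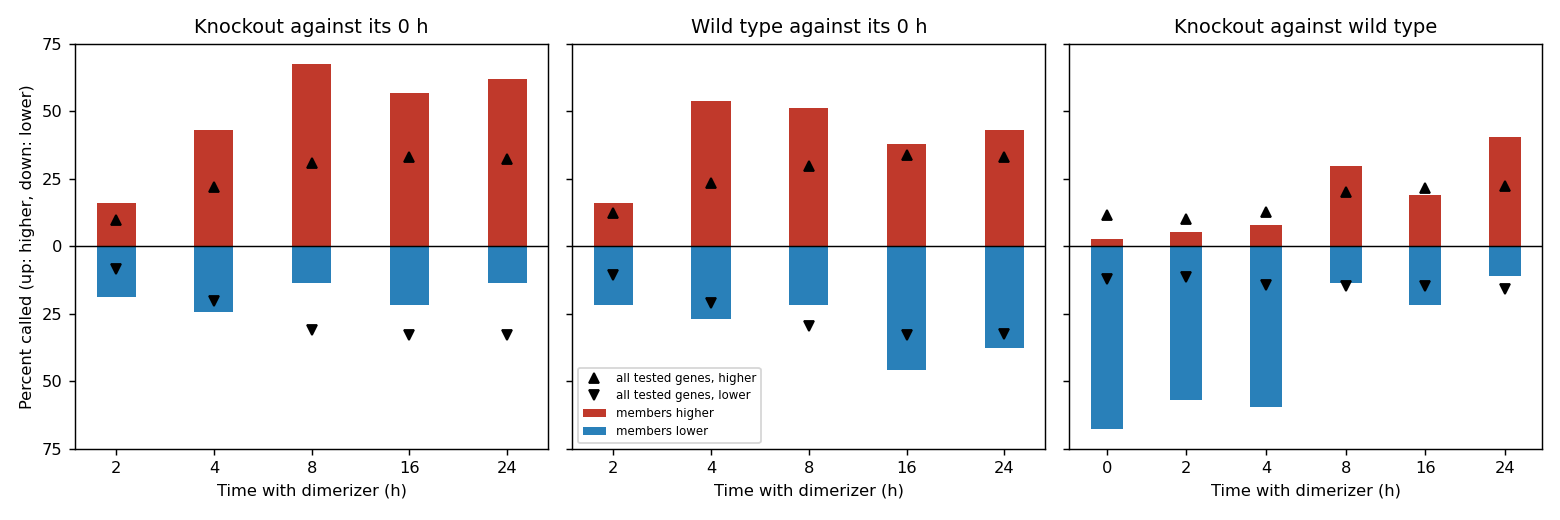
Percent of the 37 members called higher (red, upward) or lower (blue, downward) at each time, for KO against its 0 h, WT against its 0 h and KO against WT; triangles give the same percent of all tested genes. In the right panel the blue bars of 0, 2 and 4 h reach well past the triangles, while at 24 h the red bar is the longer one.

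HNRNPH1 had the largest difference of all members at 0 h (chr5:179614178-179634784). HNRNPH1 stood in KO wells at 359.6, 362 and 369 untreated, 359, 360.1 and 363 after 2 h, 342, 347 and 342 after 4 h, 396, 399.7 and 397 after 8 h, 411, 399.9 and 407 after 16 h, 467, 468 and 466 after 24 h, in CPM. The matching WT values were 515, 517 and 509 untreated, 506, 526 and 505 after 2 h, 464, 467 and 459 after 4 h, 449, 481 and 474 after 8 h, 467, 486 and 479 after 16 h, 527, 518 and 524 after 24 h. Every KO well was below every WT well at each of the 6 times. The difference was -0.50 ± 0.02 at 0 h (adjusted p = 1.88e-20), -0.43 ± 0.02 at 4 h (adjusted p = 3.03e-18). After 8 h it was -0.24 ± 0.02 (adjusted p = 6.87e-11). By 24 h it was -0.16 ± 0.02 (adjusted p = 1.61e-07). No other member in that contrast at 0 h went past -0.22, the value of HNRNPD, HNRNPA2B1 and TRA2B. HNRNPH1 has no base in its printed promoter stretch that matched a searched motif, and any other start sites of the gene were not searched.

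**Figure D4:**
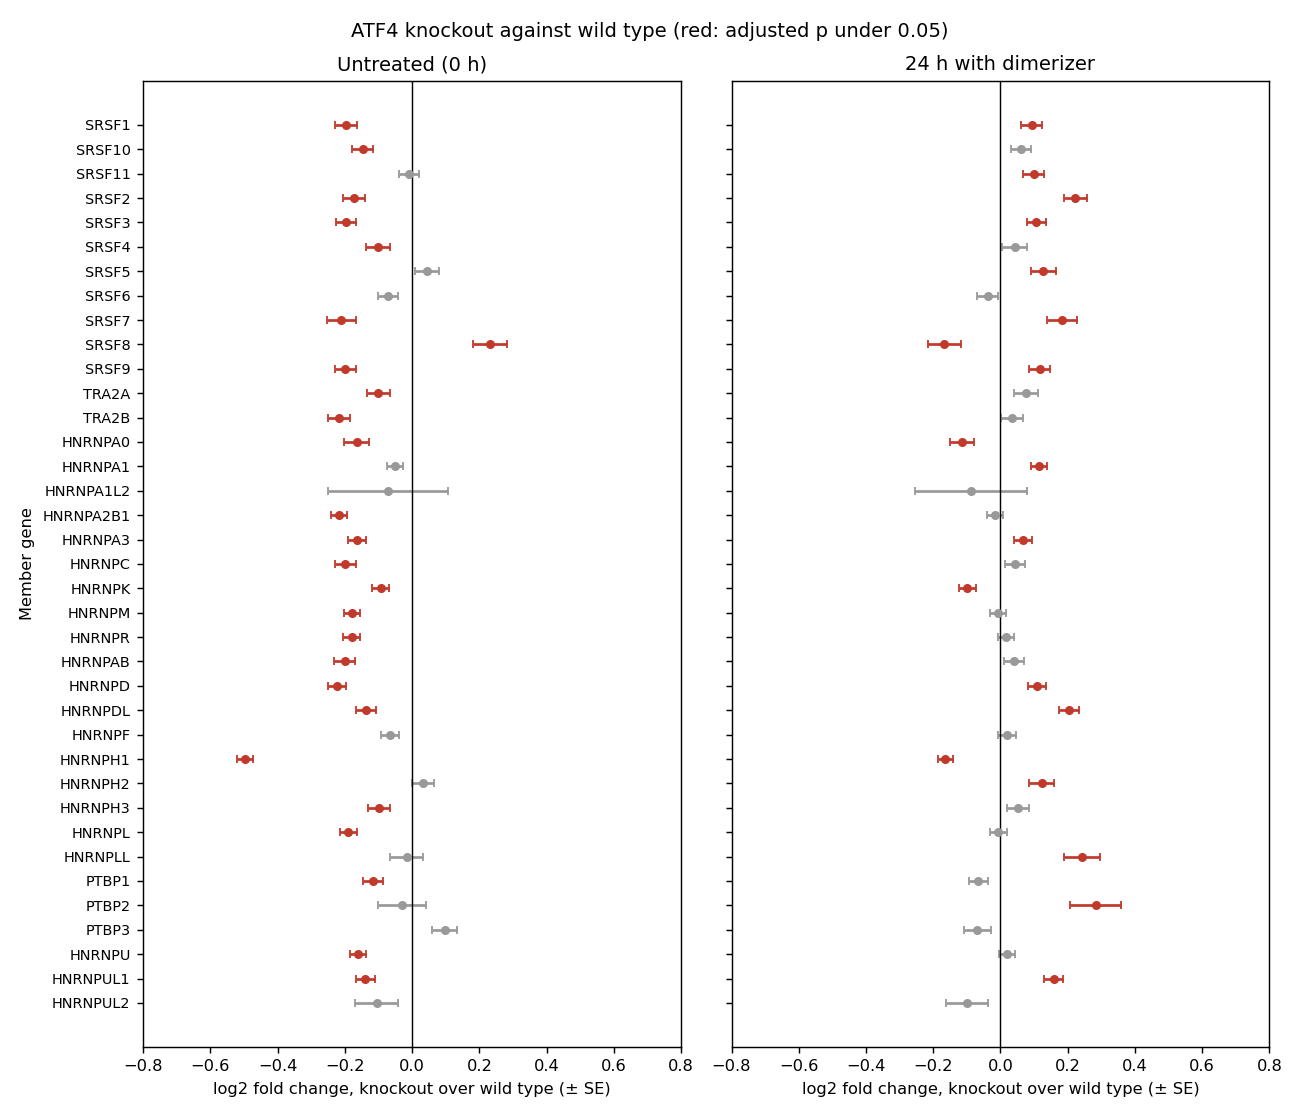
Difference between KO and WT of each member, as the log2 fold change of KO over WT ± SE, untreated (left) and at 24 h with dimerizer (right); red marks an adjusted p under 0.05. At 0 h nearly all points lie left of 0, HNRNPH1 farthest at -0.50, and at 24 h most lie near 0 or right of it, with HNRNPH1 at -0.16.

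The change after dimerizer in KO minus that in WT was tested directly. At 2 h edgeR's quasi-likelihood test called 0 members higher and 0 lower, against 0.0105% and 0.289% of all tested genes. At an unadjusted p under 0.05 there were 4 higher and 1 lower at 2 h, and DESeq2 called HNRNPL and SRSF1 higher. At 4 h 1 member was higher, SRSF1 by 0.16 ± 0.05 (adjusted p = 0.0399), and 0 were lower (0.887% and 2.39% of all genes); 3 were higher and 1 lower at an unadjusted p under 0.05. That call was lost without WT 0 h replicate 1 (0.12) or 2 (0.15), WT 4 h replicate 2 (0.15) or 3 (0.13), KO 0 h replicate 2 (0.12) or 3 (0.17), or any KO 4 h replicate (0.16, 0.15 and 0.13). It also did not pass without the filter on low counts (0.17), with a fit of the contrast's own groups (0.15) or with limma on log2(TPM + 1) (0.18).

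At 8 h 23 members had the higher change in KO and 1 the lower, against 11.3% and 6.99% of all tested genes. At 16 h the numbers were 23 and 2 (16.7% and 11.0%), and at 24 h 25 and 2 (17.7% and 12.1%). The median difference of the members was 0.13, 0.14 and 0.18 at 8, 16 and 24 h, against 0.02, 0.04 and 0.04 for all tested genes. This test and the 0 h comparison use the same untreated wells, so a low 0 h value in KO enters both. The count of 23 at 8 h became 11 without WT 0 h replicate 1, 15 without WT 0 h replicate 2, 12 without KO 0 h replicate 2, and 13 without WT 8 h replicate 1 or 3 or KO 8 h replicate 2. With limma on log2(TPM + 1) and all TPM columns of untreated KO there were 8 higher at 8 h, 9 at 16 h and also 9 at 24 h. With TPM columns 1 and 2 of untreated KO the higher counts at 8, 16 and 24 h stayed within 1.5 times those from the counts. Without a filter on low counts, or with a fit of the contrast's own groups, there were 14 at 16 h.

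HNRNPH1 had the smallest adjusted p in this test at 8 h and at 24 h. It rose by 0.13 ± 0.02 in KO and fell by 0.13 ± 0.02 in WT at 8 h, a difference of 0.26 ± 0.03 (adjusted p = 7.53e-08). At 24 h it rose by 0.36 ± 0.02 in KO and was at 0.03 ± 0.02 in WT, a difference of 0.33 ± 0.03 (adjusted p = 6.1e-11). Both calls were lost in the limma fit of all TPM columns (0.11 and 0.22) and held with TPM columns 1 and 2 of untreated KO (0.23 and 0.34).

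HNRNPR, a relative of SYNCRIP that binds mRNA in nucleus and cytoplasm, differed at 8 h by 0.24 ± 0.04 (adjusted p = 9.17e-07; chr1:23303771-23344336). HNRNPR stood in KO wells at 246, 242 and 241 untreated, 259.9, 262 and 271 after 2 h, 274, 282 and 283 after 4 h, 332, 331 and 337 after 8 h, 322, 326 and 320.1 after 16 h, 347, 354 and 359 after 24 h, in CPM. In WT wells it read 277, 278 and 269.9 untreated, 287, 296 and 295 after 2 h, 297, 299 and 304 after 4 h, 317, 314 and 325 after 8 h, 335, 333 and 329.6 after 16 h, 346, 357 and 345 after 24 h. The KO wells were below the WT wells at 0, 2 and 4 h, above them at 8 h, all below them again at 16 h, and overlapping with them at 24 h. HNRNPR rose by 0.46 ± 0.02 in KO and 0.21 ± 0.02 in WT at 8 h. SRSF1 differed at 8 h by 0.30 ± 0.05 (adjusted p = 3.13e-06), its KO wells being below the WT wells at 0 h and above them at 8 h. In the limma fit of all TPM columns HNRNPR did not pass (0.18), and with TPM columns 1 and 2 of untreated KO it did (0.27).

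HNRNPD, also known as AUF1, differed at 24 h by 0.33 ± 0.04 (adjusted p = 1.32e-09; chr4:82352498-82374503). HNRNPD stood in KO wells at 410.5, 413 and 409 untreated, 422, 412 and 416 after 2 h, 434, 443 and 431 after 4 h, 548, 559 and 549 after 8 h, 554, 553 and 552 after 16 h, 573, 589 and 607 after 24 h, in CPM. WT wells gave 486, 473 and 479.9 untreated, 446, 468 and 462 after 2 h, 516, 513 and 481 after 4 h, 551, 544 and 561 after 8 h, 544, 571 and 561 after 16 h, 562, 535 and 544 after 24 h. At 0 h all KO wells were below all WT wells, at 8 and 16 h the genotypes overlapped, and at 24 h all KO wells were above all WT wells. The rise at 24 h was 0.52 ± 0.03 in KO and 0.19 ± 0.03 in WT. The difference was 0.18 and did not pass in the limma fit of all TPM columns, and was 0.26 and passed with TPM columns 1 and 2 of untreated KO.

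SRSF2, the SR protein long used as a marker of nuclear speckles, had the largest positive difference at 24 h, 0.40 ± 0.05 (adjusted p = 6.06e-09; chr17:76734115-76737374). SRSF2 stood in KO wells at 270.0, 249.8 and 254 untreated, 246, 248 and 249 after 2 h, 289.9, 279.6 and 297 after 4 h, 342, 349 and 335 after 8 h, 265, 262 and 259.5 after 16 h, 295, 292 and 309 after 24 h, in CPM. The matching WT values were 303, 289 and 279 untreated, 256, 271 and 278 after 2 h, 327, 328 and 342 after 4 h, 322, 313 and 324 after 8 h, 229.8, 242 and 245 after 16 h, 252, 257 and 259 after 24 h. At 24 h SRSF2 rose by 0.21 ± 0.03 in KO and fell by 0.18 ± 0.03 in WT, and the KO wells, below the WT wells at 0 h, lay above them. Of its exon bases, 36.7% face MFSD11 on the other strand. No source used here gives the strand setting of the quantification, so reads of such partners may be mixed.

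SRSF7, whose wells are given above, differed by 0.34 ± 0.06 at 16 h (adjusted p = 2.76e-05). At 24 h the difference was 0.39 ± 0.06 (adjusted p = 2.03e-06). Its KO wells were below all WT wells at 0 h and above all of them at 24 h. The difference of 0.19 ± 0.06 at 8 h (adjusted p = 0.0171) was lost without WT 0 h replicate 1, WT 8 h replicate 1 or 3, KO 0 h replicate 2 or KO 8 h replicate 2 (0.10, 0.13, 0.16, 0.14 and 0.16). It did not pass in the limma fits of TPM either (0.34 with all columns and 0.18 with columns 1 and 2 of untreated KO).

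SRSF8 ran the other way from SRSF2, its paralog. SRSF8 stood in KO wells at 55.6, 60.5 and 58.7 untreated, 53.3, 58.0 and 53.9 after 2 h, 60.9, 64.6 and 62.8 after 4 h, 68.8, 68.2 and 69.6 after 8 h, 61.9, 61.2 and 60.2 after 16 h, 59.0, 59.7 and 60.2 after 24 h, in CPM. In WT wells it read 48.9, 49.9 and 50.4 untreated, 46.0, 47.8 and 52.7 after 2 h, 56.7, 65.6 and 55.4 after 4 h, 70.2, 70.6 and 69.5 after 8 h, 69.5, 71.4 and 66.9 after 16 h, 66.5, 64.7 and 70.4 after 24 h. Its KO wells were above the WT wells at 0 h and below them at 16 and 24 h. SRSF8 rose by 0.50 ± 0.05, 0.48 ± 0.05 and 0.43 ± 0.05 in WT at 8, 16 and 24 h, and in KO by 0.24 ± 0.05 at 8 h, while at 24 h in KO it was at 0.03 ± 0.05. The difference was -0.26 ± 0.07, -0.41 ± 0.07 and -0.40 ± 0.07 (adjusted p = 0.00731, 1.15e-05 and 1.63e-05). At 8 h it did not pass with limma on log2(TPM + 1) (-0.23). The other member with a lower change in KO, at 16 and 24 h, was PTBP3 (-0.21 ± 0.06 and -0.16 ± 0.05), and with limma on log2(TPM + 1) neither value of PTBP3 passed (-0.12 and -0.16).

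**Figure D5:**
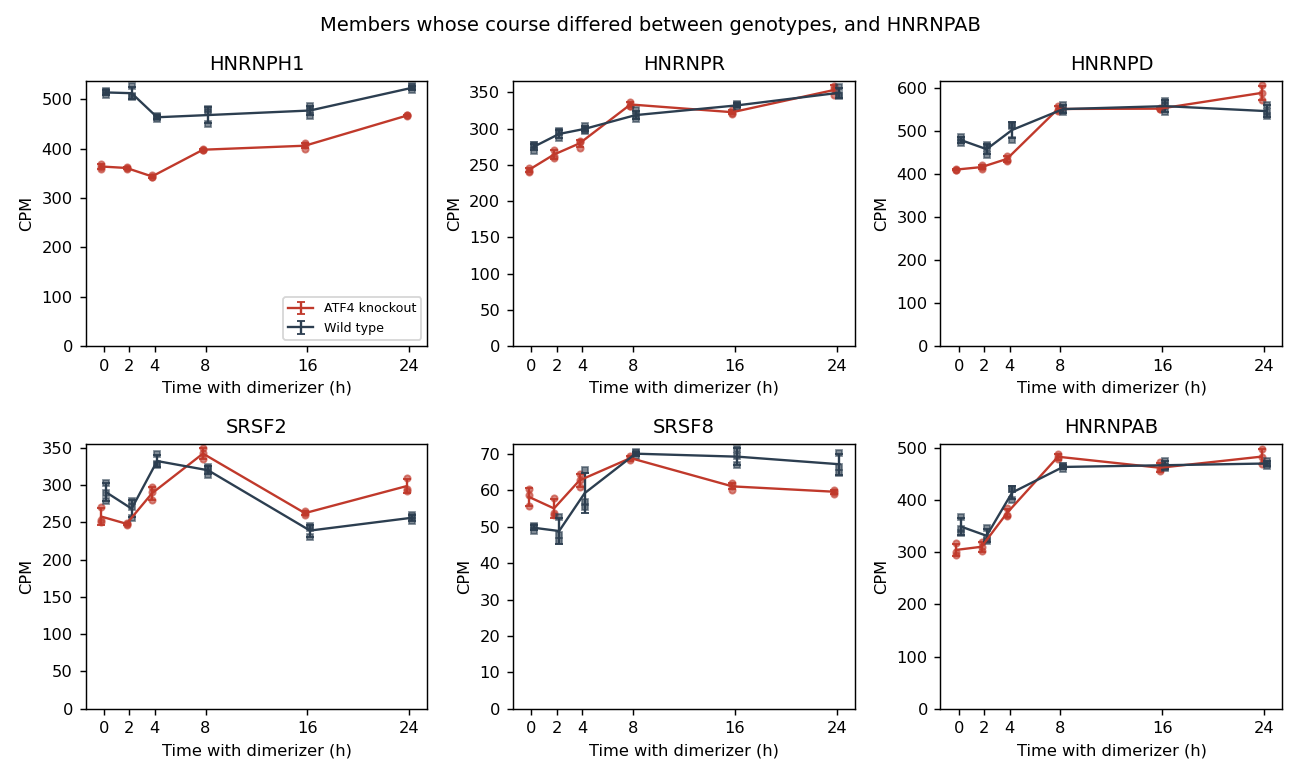
CPM against hours with dimerizer for 5 members whose course differed between genotypes, and for HNRNPAB. The change of HNRNPAB also differed between genotypes at 8, 16 and 24 h. Points are the 3 wells, lines join group means and bars are ± SD, KO (red circles) drawn just left of WT (dark squares). HNRNPH1 runs lower in KO throughout, HNRNPR, HNRNPD and SRSF2 start lower in KO and meet or cross the WT line by 8 to 24 h, and SRSF8 starts higher in KO and ends lower.

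Partners of these regulators were described from 5 lists. Of all tested genes 32.4% were higher and 33.0% lower at 24 h in KO, and 33.0% and 32.4% in WT. Of 12 kinases and phosphatases that set the phosphorylation of SR tails, 5 were higher and 1 lower at 24 h in KO, and 5 higher and 3 lower in WT. The median change of these 12 genes was 0.142 in KO and -0.015 in WT. SRPK1, the cytoplasmic SR protein kinase, rose by 0.92 ± 0.04 in KO and 0.76 ± 0.04 in WT, and the phosphatase gene PPM1G by 0.80 ± 0.04 and 0.51 ± 0.03. CLK1, a nuclear SR protein kinase, rose by 0.72 ± 0.07 in WT, and CLK4 fell by 0.37 ± 0.11 in KO and 0.35 ± 0.11 in WT. Of 17 genes of the U2 snRNP and branch-site recognition, 15 were higher and 1 lower at 24 h in KO and 14 and 1 in WT, with a median change of 0.44 in KO and 0.24 in WT. SF1, which binds the branch site, rose by 0.67 ± 0.03 in KO and 0.55 ± 0.03 in WT, whereas SF3B1 fell by 0.16 ± 0.03 and 0.22 ± 0.03.

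Of 20 Sm, U1 and tri-snRNP genes, 18 were higher and 1 lower at 24 h in KO, and 16 and 1 in WT (medians 0.47 and 0.28). The exception was SNRNP70, the U1 protein, which fell by 0.26 ± 0.03 in KO and 0.36 ± 0.03 in WT. Of 14 genes of the nonsense-mediated decay core, 13 were higher and 1 lower in KO, and 13 and 0 in WT (medians 0.61 and 0.47), with SMG5, a decay effector, at 0.80 ± 0.03 in KO and 0.50 ± 0.03 in WT. Of 43 other RNA-binding splicing regulators, 27 were higher and 7 lower in KO, and 22 and 11 in WT (medians 0.24 and 0.10). Among them MBNL2, a regulator of developmental exons, fell by 1.87 ± 0.08 in KO and 1.86 ± 0.09 in WT, and NOVA2, known from neurons, fell by 1.91 ± 0.12 in KO and fell by 2.86 ± 0.14 in WT. The background shares at 24 h are those given above for the members, and the members' medians at 24 h were 0.20 in KO and 0.03 in WT.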

How the data were processed

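Expected counts and TPM per gene were deposited by the authors for the same 36 libraries. Per the labels' protocols, libraries were directional and made from total RNA. Per the submitters' processing notes, FastQC 0.11.5 and Salmon 0.9.1 were used with GRCh38. The annotation release, the strand setting and the transcript-to-gene step are not given in the sources used here. A floor was visible: the smallest TPM deposited by the authors was 0.102292 in every column.

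Counts were rounded, filtered with filterByExpr by group and scaled by TMM. A mean per group was fitted over 36 libraries with edgeR 4.0.16 (limma 3.58.1, R 4.3.3), with Benjamini-Hochberg adjustment over all tested genes of a contrast. Alternatives were RLE scaling, no filter, a fit of the contrast's own groups, a block for replicate number, DESeq2 1.42.0, limma on log2(TPM + 1) and log2(TPM + 0.1), and each library left out. The fit was tested on simulated counts in which a small share of genes changed, and only in KO at 8 h. Changes in as many genes as were called here were not simulated. Positions are from GENCODE 29, matched by gene identifier, 26 of the 37 members also by version. The deposited tables had 0 columns of no sample.

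No replicate pair was a duplicate: chi-square over degrees of freedom was 1.34 to 2.61 for the counts of 36 pairs. The members and lists were chosen with earlier results of these data known. Values per well are given for the 6 members with the widest span and the 3 with the smallest adjusted p of the difference at 8 and 24 h. Other named members were among the 3 called with the largest change in a contrast, or complete a family's count. Values per well of SRSF8, HNRNPAB, HNRNPA1 and HNRNPU were added after seeing them.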

Additional observations from a re-analysis of the deposited data

Results flagged for a closer look

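A result stands here because the change after dimerizer differed between KO and WT by the test of that difference (edgeR's quasi-likelihood test, Benjamini-Hochberg adjusted). Values are the log2 change in KO minus that in WT, for the members that the naming rule covers. At 4 h it was 0.16 for SRSF1. At 8 h it was 0.26 for HNRNPH1, 0.22 for HNRNPH3, 0.24 for HNRNPR, 0.27 for PTBP2, 0.30 for SRSF1, 0.27 for SRSF2, 0.19 for SRSF7 and -0.26 for SRSF8. At 16 h it was 0.30 for HNRNPDL, 0.17 for HNRNPH3, -0.21 for PTBP3, 0.29 for SRSF1, 0.31 for SRSF2, 0.34 for SRSF7 and -0.41 for SRSF8. At 24 h it was 0.33 for HNRNPD, 0.34 for HNRNPDL, 0.33 for HNRNPH1, 0.15 for HNRNPH3, -0.16 for PTBP3, 0.29 for SRSF1, 0.40 for SRSF2, 0.39 for SRSF7 and -0.40 for SRSF8. All of them use the untreated wells of both genotypes.

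The PTBP2 value at 8 h did not pass when any 1 of 9 libraries was left out. The HNRNPH3 value at 24 h did not pass without WT 0 h replicate 1, WT 24 h replicate 3, KO 0 h replicate 2 or KO 24 h replicate 3. In the limma fit of log2(TPM + 1) with all columns of untreated KO, HNRNPH3 was at 0.0607, 0.028 and -0.0066 at 8, 16 and 24 h, PTBP2 at 0.1854 at 8 h, and PTBP3 at -0.1245 and -0.1556 at 16 and 24 h, and none of these passed. With TPM columns 1 and 2 of untreated KO, PTBP2 at 8 h (0.1168), PTBP3 at 16 and 24 h (-0.1327 and -0.1638) and HNRNPH3 at 24 h (0.1905) did not pass. Values for SRSF1 at 4 h, SRSF7 and SRSF8 at 8 h, HNRNPR, HNRNPD and HNRNPH1 are with their results above.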

How the results depend on the processing

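Counts are of members higher or lower. Most settings left the counts within 1.5 times; the rest follow, and their cause was not tested. With no filter on low counts, KO at 2 h had 2 lower, WT at 2 h 3 higher, and the difference of changes 0 higher at 4 h, 14 higher after 16 h and 1 lower after 24 h. Fitting only the groups of the contrast gave 4 lower in KO at 2 h, 3 higher in WT at 2 h, and 0 and 14 higher differences at 4 and 16 h. DESeq2 gave 2 higher differences at 2 h.

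Limma on log2(TPM + 1) and on log2(TPM + 0.1) gave equal counts: KO at 2 h 3 lower, KO at 24 h 15 higher, WT at 2 h 3 higher and 2 lower, and WT at 4 h 13 higher and 6 lower. For the difference they were 0 higher after 4 h, 8 higher with 0 lower after 8 h, 9 with 1 after 16 h and 9 with 1 after 24 h. Untreated KO against WT had 0 higher and 9 lower. With TPM columns 1 and 2 of untreated KO, KO had 2 lower after 2 h and 4 lower after 4 h. The difference had 0 higher after 4 h, and 1 lower after 16 h as after 24 h. HNRNPH3 changed sign in both TPM fits, to -0.0066 for the difference at 24 h, and to 0.0707 and 0.0708 at 0 h. KO against WT at the same time, in place of the difference, gave (higher, lower) 2, 21 after 2 h, 3, 22 after 4 h, 11, 5 after 8 h, 7, 8 after 16 h, 15, 4 after 24 h, and was chosen after seeing the data.

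Leaving out each library gave these ranges of higher and lower counts. KO: 5 to 7 with 3 to 5 after 2 h, 14 to 18 with 6 to 8 after 4 h, 22 to 26 with 5 to 6 after 8 h, 21 with 6 to 9 after 16 h, 22 to 24 with 5 to 6 after 24 h. WT, same times: 4 to 6 with 6 to 9, 17 to 20 with 9 to 11, 18 to 19 with 8, 14 with 15 to 17, 14 to 16 with 14. The difference, same times: 0 with 0, 0 to 1 with 0, 11 to 23 with 1, 16 to 22 with 2, 22 to 26 with 2. At 0 h they were 1 to 2 and 22 to 24, with 2 higher without WT 0 h replicate 2 or KO 0 h replicate 3. SRSF1 at 4 h is given above.

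The replicate number as a block moved no count by over 1.5 times (25, 24 and 26 higher differences at 8, 16 and 24 h). With the replicate block SRSF5 in WT at 8 h (-0.0753), the SRSF5 difference at 8 h (0.1348) and the SRSF6 differences at 8 and 16 h (0.1178 and 0.1085) passed. In edgeR's quasi-likelihood test without the block their adjusted p was 0.0867, 0.0707, 0.0519 and 0.0723. The SRSF5 difference at 8 h also passed with DESeq2 (0.1345) and with a fit of the contrast's own groups (0.1413). The SRSF6 difference at 8 h also passed with RLE scaling (0.117) and DESeq2 (0.1177). Both passed without KO 0 h replicate 3 or KO 8 h replicate 1. In 0 contrasts was every pair of same-numbered libraries correlated over 0.1, so replicate numbers were not taken to pair wells. Of 36 libraries 26 correlated best with their own number, a hint from the data and not the design. Depth limits HNRNPA1L2, the lowest member, most: its SE was 0.17 to 0.26.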
